A study of Mus musculus with 8 samples.

Results

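Enzymes that write or erase histone acetylation, histone methylation and DNA methylation were followed in mouse liver RNA. They were taken by gene symbol from a deposited table of read counts: the lysine demethylases (Kdm), lysine methyltransferases (Setd, Ehmt, Ezh and Dot1l, with Suz12 and Eed, the non-catalytic partners of the Ezh enzymes), histone deacetylases (Hdac), sirtuins (Sirt), lysine acetyltransferases (Kat), arginine methyltransferases (Prmt), DNA methyltransferases (Dnmt) and TET dioxygenases (Tet), with Kdm6a left out. The rule found 68 of the 22946 rows, and 64 of them held enough reads to be tested. Dnmt3l and Prmt8 were at 0 counts in all 8 libraries, and Kdm4d and Tet1 were too low, at no more than 0.0709 and 0.348 CPM (read counts relative to the scaled size of the library). Symbols are those of the table, and some are older names, such as Setd8 for Kmt5a and Prmt10 for Prmt9. An enzyme whose symbol in the table has another root is not among them.

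The livers came from C57 Black mice labelled either MLL4 het (called het-labelled) or wild-type. Mice reached 8 weeks of age and then ate a high fat diet (HFD) or chow for 8 weeks. This gave 4 groups of 2 libraries: het-labelled HFD (libraries 7 and 8), wild-type HFD (5 and 6), het-labelled chow (3 and 4) and wild-type chow (1 and 2). The study set the diets against each other within wild-type livers and asked how the het-labelled livers differed. The labels do not describe the altered allele or say whether each library is 1 animal, so p-values measure the spread between libraries, which may be technical.

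Chromatin enzymes share a simple logic. Acetyltransferases add acetyl groups to histone lysines, which goes with open, transcribed chromatin, and deacetylases and the NAD-dependent sirtuins take them off. Methyltransferases of the SET and Polycomb families place methyl groups on particular lysines, some of which mark active and some silent genes, and the demethylases remove them with flavin or with iron and 2-oxoglutarate as cofactors. DNA methyltransferases methylate cytosine in CpG dinucleotides and TET dioxygenases oxidise that methyl group. In liver, Hdac3 and the sirtuins are known as regulators of lipid metabolism, and MLL4 (Kmt2d, listed as Mll2) is itself a histone H3 lysine 4 methyltransferase.

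The libraries held between 14142884 and 18928676 counts. Mll2, the gene behind the genotype label, ranged from 60.0 to 75.4 CPM over the 8 libraries with overlapping groups, so its RNA did not separate het-labelled from wild-type livers. How the allele is altered is not described, and a row total does not show which copy was transcribed. Hepatocyte markers dominated. Their summed level, for 6 genes including albumin, was 65800 to 69127 CPM in HFD livers and 76221 to 82823 CPM in chow livers. With HFD on average, 1 of the 6 was called lower. Library 3 of het-labelled chow and the Kupffer cell markers of het-labelled chow livers stood apart and are taken up beside the genes they touch. In bulk tissue, fewer cells of a type and less RNA per cell cannot be told apart. Strand was not stated, so reads of overlapping or antisense genes may be shared. Some reads of similar pairs, such as Kdm5c and its Y-linked homolog Kdm5d, may be shared as well.

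Most of these enzymes were transcribed at moderate and steady levels. The summed level of the 68 rows lay between 1505 and 1576 CPM in the 8 libraries. Of the 64 tested enzymes, 60 varied less than 2-fold and 49 less than 1.5-fold between their lowest and highest library, and the median ratio was 1.35. Per length of exon, the highest was Kat2b (PCAF), an acetyltransferase of histone H3, at a mean of 18.4 CPM per kb. It was followed by Sirt3, the main mitochondrial deacetylase, at 12.98 CPM per kb, Setd3, an actin histidine methyltransferase, at 12.96 CPM per kb, and Hdac11 at 12.9 CPM per kb. Ehmt2 (G9a), which methylates histone H3 lysine 9, stood at 10.7 CPM per kb. The lowest tested were Hdac9 at 0.0689, the joined row of Prmt2 and the microRNA gene Mir678 at 0.202, Hdac4 at 0.255 and Ezh2 at 0.587 CPM per kb. Within families the levels differed widely on this scale: Ezh1, the Polycomb methyltransferase of non-dividing cells, averaged 2.26 CPM per kb and Ezh2, that of dividing cells, 0.587 CPM per kb.

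**Figure D1:**
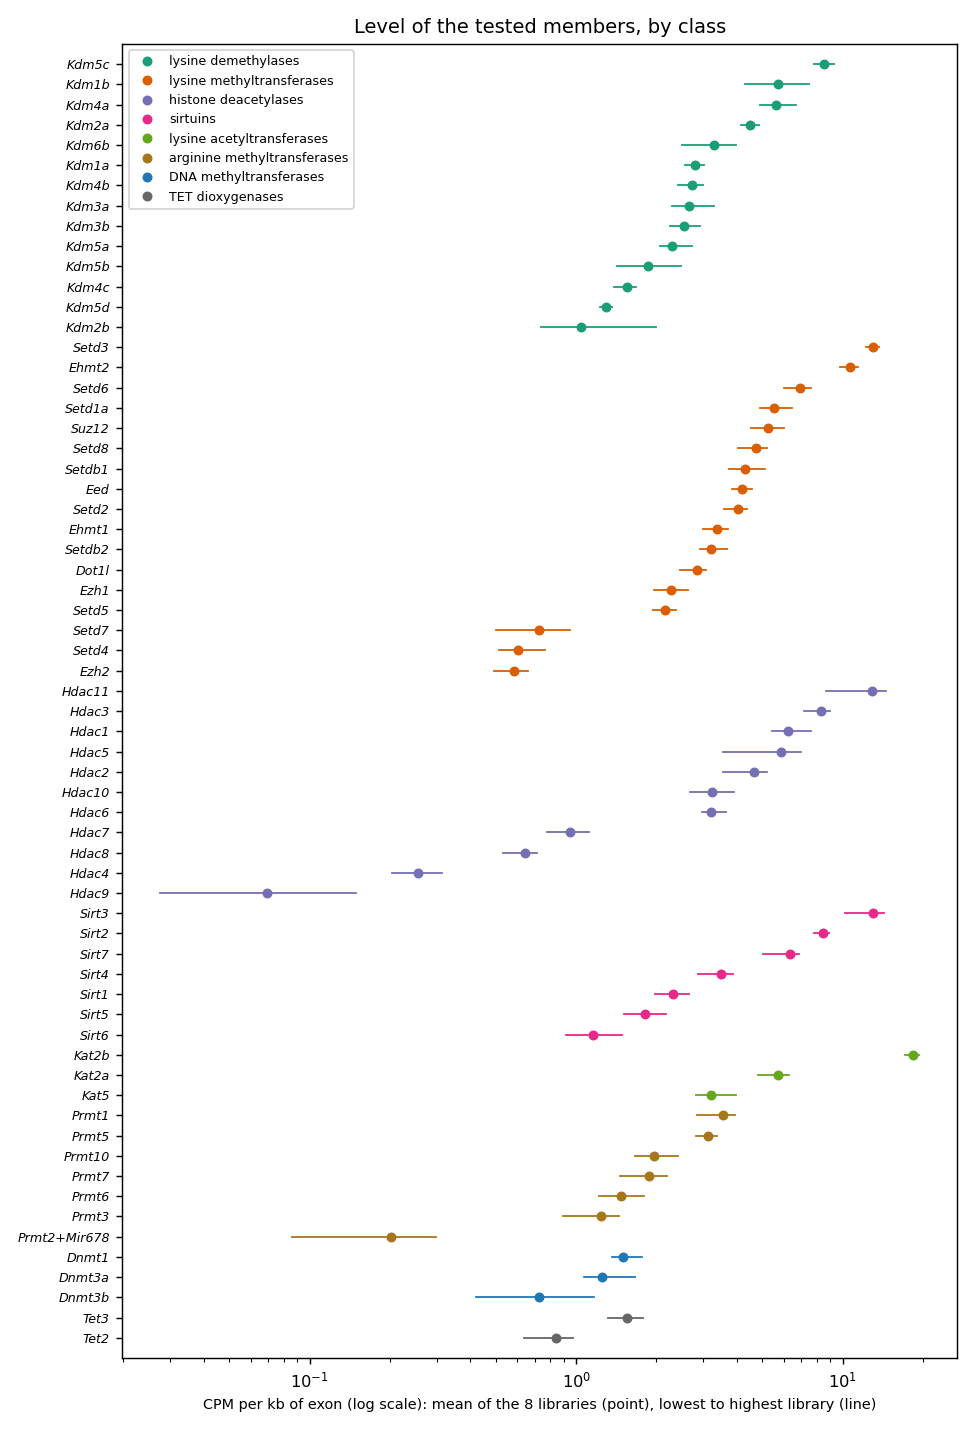
Mean level of the 64 tested enzymes in CPM per kb of exon (horizontal log axis; points, with lines from the lowest to the highest of the 8 libraries), grouped and coloured by class. Kat2b is highest at 18.4 and Hdac9 lowest at 0.0689 CPM per kb, and most lines are short.

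Few enzymes passed the test in any comparison. The test was the edgeR quasi-likelihood test over all 12593 tested rows, with Benjamini-Hochberg adjustment and a call at an adjusted p under 0.05. On HFD against chow in wild-type livers, 2 of 64 enzymes were called, 1 higher (Kdm1b) and 1 lower (Kdm3a), where 4.59% of all tested rows were called, 2.37% higher and 2.22% lower. In het-labelled livers the same diet comparison called 1 enzyme, Kdm2b, as lower, against 3.02% of all rows, 1.53% higher and 1.48% lower. The shares of enzymes called, 1.56% in het-labelled and 3.12% in wild-type livers, rest on 1 and 2 calls and are no result about the enzymes as a group.

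Genotype gave as few calls. On chow, Kdm2b alone was called, as higher in het-labelled livers, where 0.516% of all rows were called, 0.326% higher and 0.191% lower. That is 1.56% of the enzymes and rests on 1 call. On HFD, edgeR called 0 of the 64 enzymes, where 0.445% of all rows were called, 0.0953% higher and 0.349% lower. On HFD 4 enzymes had an unadjusted p under 0.05, beside 13.8% of all rows, and DESeq2 called 0 enzymes, beside 229 of all rows. The interaction, which asks whether the diet change differed between genotypes, called 0 enzymes and 0% of all rows in either direction, with a smallest adjusted p of 0.0963 over all rows. For the interaction, 3 enzymes and 900 of all rows had an unadjusted p under 0.05, and DESeq2 called 1 enzyme (Kdm2b) among 23 rows.

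Averaging set 4 libraries against 4. HFD against chow averaged over both genotypes called 4 enzymes, Kdm1b as higher and Kdm2b, Kdm3a and Dnmt3b as lower, where 10.4% of all rows were called, 5.56% higher and 4.84% lower. Het-labelled against wild-type averaged over both diets called 3 enzymes, Kdm2b, Setd7 and Setd1a, as higher, where 3.24% of all rows were called, 1.21% higher and 2.03% lower. The shares of enzymes called were 6.25% for diet and 4.69% for genotype, from 4 and 3 calls. The enzymes' median log2 change was -0.03 for diet and 0.05 for genotype, beside 0.01 for diet and 0.01 for genotype over all rows. Of the enzymes, 61 had a difference under 0.5 on the log2 scale with diet and 60 with genotype. The averaged and single comparisons share libraries, so calls in more than 1 of them are not independent.

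**Figure D2:**
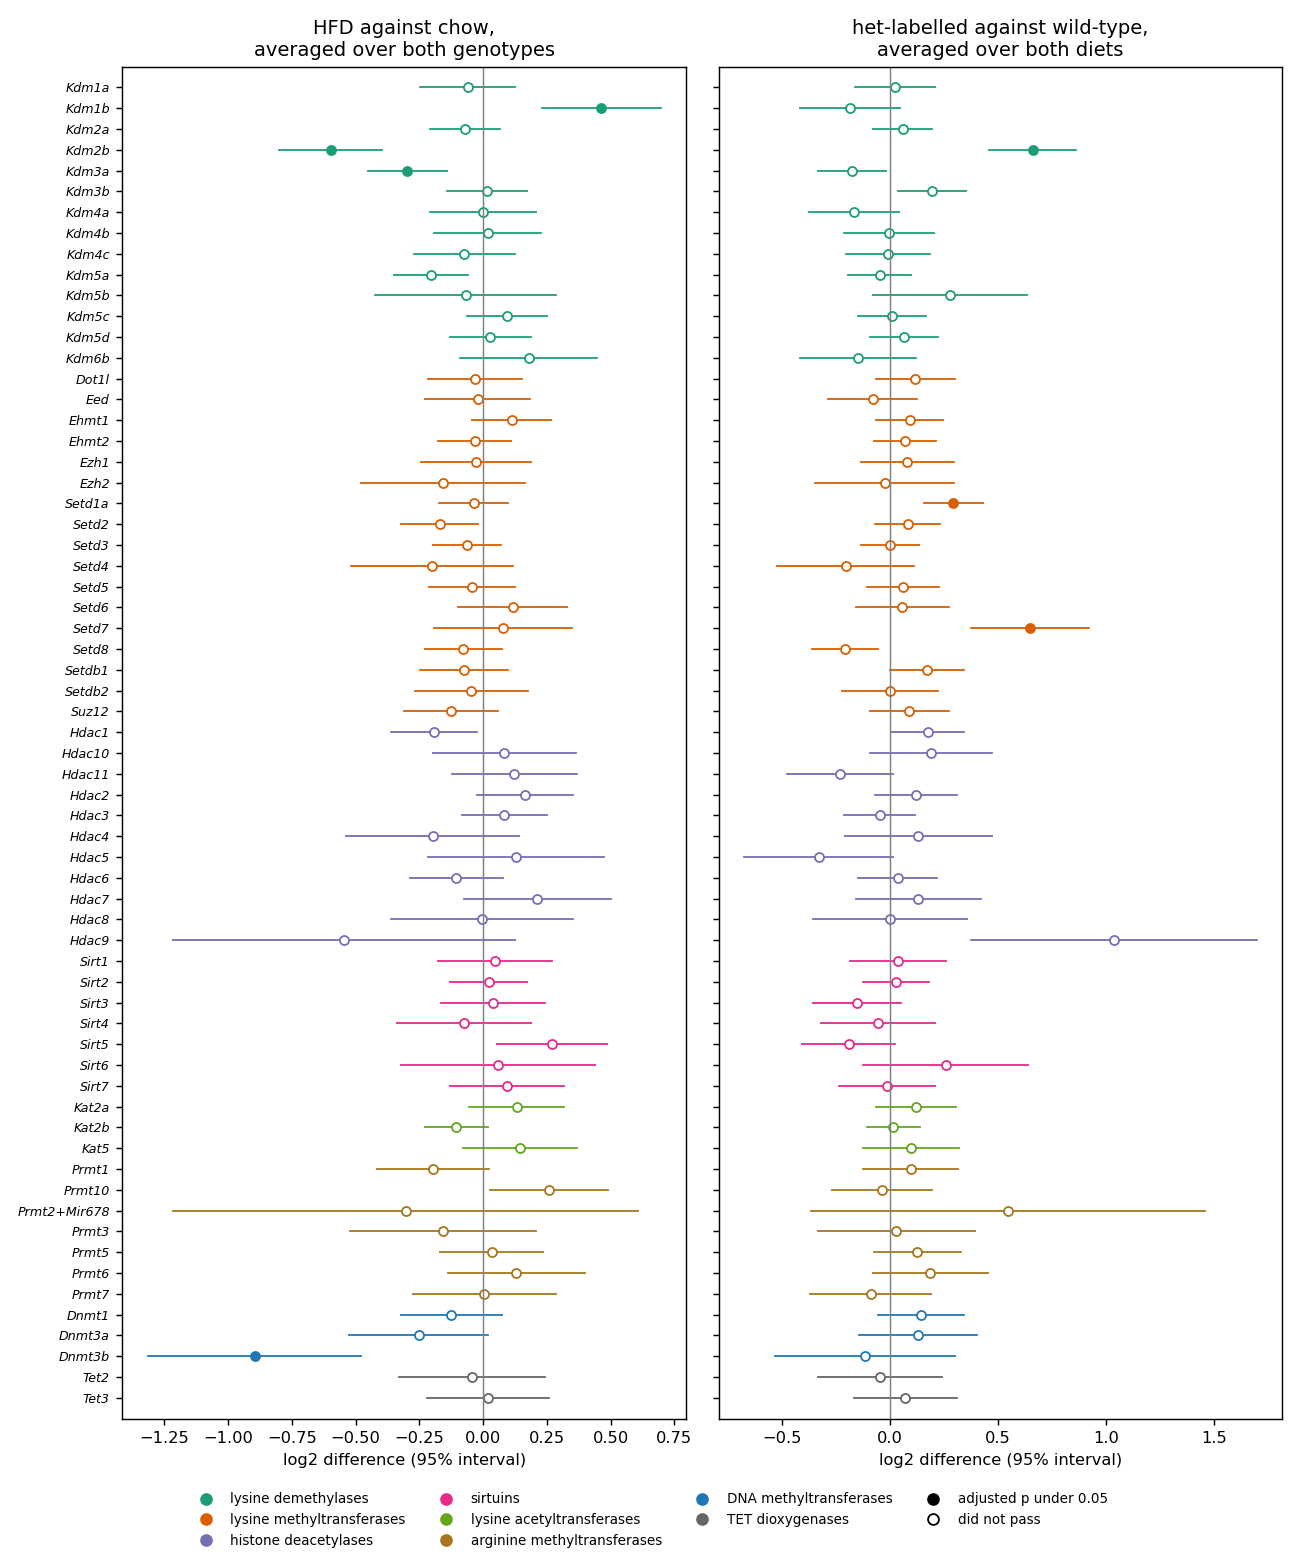
Log2 difference (points, with 95% intervals) of each of the 64 tested enzymes for HFD against chow averaged over both genotypes (left) and het-labelled against wild-type averaged over both diets (right), coloured by class, filled where the adjusted p is under 0.05. Most points lie within 0.5 of 0, and the filled ones are Kdm1b, Kdm2b, Kdm3a and Dnmt3b on the left and Kdm2b, Setd1a and Setd7 on the right.

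Kdm2b was the enzyme that moved most clearly, and it did so in 1 group. It is a demethylase of histone H3 lysine 36 whose CXXC zinc finger binds unmethylated CpG and brings a Polycomb complex to CpG islands. The gene has more than 1 annotated start on the minus strand of chromosome 5, and a count per gene cannot say which start was used. An upstream window, chr5:122988458-122988757, and an internal window, chr5:122900318-122900617, are shown as CpG-rich windows of the gene. Methylation and binding of the protein there were not measured. Each window runs from 250 bases before to 50 bases after a start (RefSeq, GRCm38.p6, written 5′ to 3′ along the gene, with every CG in capitals).
Kdm2b upstream: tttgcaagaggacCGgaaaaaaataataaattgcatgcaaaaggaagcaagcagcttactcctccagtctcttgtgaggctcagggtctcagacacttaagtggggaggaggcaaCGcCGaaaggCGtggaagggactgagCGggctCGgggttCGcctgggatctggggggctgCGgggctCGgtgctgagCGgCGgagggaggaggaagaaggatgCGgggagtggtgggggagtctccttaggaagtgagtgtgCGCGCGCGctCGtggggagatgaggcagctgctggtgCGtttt
Kdm2b internal: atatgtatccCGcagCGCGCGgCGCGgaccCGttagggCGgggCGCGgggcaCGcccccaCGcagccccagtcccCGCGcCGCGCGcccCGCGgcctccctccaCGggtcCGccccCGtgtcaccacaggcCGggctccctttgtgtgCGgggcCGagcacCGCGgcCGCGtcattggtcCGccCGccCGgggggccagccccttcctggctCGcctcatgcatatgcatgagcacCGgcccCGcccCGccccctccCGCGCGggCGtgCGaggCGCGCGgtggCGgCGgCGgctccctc
They hold 18 and 47 CG dinucleotides, where the median of 32851 such windows of all genes was 7. The windows of the gene not shown hold 49 (chr5:122900301-122900600) and 28 (chr5:122989050-122989349, further upstream).

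Kdm2b RNA was 8.74 and 8.25 CPM in het-labelled HFD livers, 8.48 and 8.37 CPM in wild-type HFD livers, 21.7 and 18.6 CPM in het-labelled chow livers and 8.00 and 8.29 CPM in wild-type chow livers. Both het-labelled chow libraries were more than 2-fold above every other library, and the other 6 lay between 8.00 and 8.74 CPM. On chow it was 2.48-fold higher in het-labelled than in wild-type livers (log2 change 1.31 ± 0.12 SE, edgeR adjusted p = 0.0113). The call was lost without library 3 (adjusted p = 0.0650), library 1 (0.0945) or library 2 (0.171), while the log2 change stayed between 1.19 and 1.40 over 13 settings.

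In het-labelled livers Kdm2b fell with HFD, to 0.421 of its chow level (log2 change -1.24 ± 0.12, edgeR adjusted p = 0.00384). That call held in each of 13 alternative settings. In wild-type livers the log2 diet change was 0.05 ± 0.13, with a 95% interval of -0.24 to 0.34. On HFD the log2 difference between genotypes was 0.01 ± 0.13, with an interval of -0.28 to 0.31. The difference between the diet changes, the interaction, was -1.29 ± 0.18, the 4th smallest p of 12593 rows, but its edgeR adjusted p of 0.170 did not pass. It passed with DESeq2 (0.0337) and without the filter on low rows (0.0344). The averaged diet effect (-0.60 ± 0.09, adjusted p = 0.00448) and the averaged genotype effect (0.66 ± 0.09, adjusted p = 0.0151) rest on the same 2 libraries of het-labelled chow. The averaged genotype call was lost without library 1 (adjusted p = 0.0548) or library 2 (0.0783).

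Neighbouring and related genes give the surroundings of this change. Exons of Rnf34, on the other strand, overlap Kdm2b. Rnf34 had 10.99 and 8.78 CPM in het-labelled chow livers and 8.25 and 8.17 CPM in wild-type chow livers, a log2 difference of 0.27 ± 0.16 (edgeR adjusted p = 0.458). A930024E05Rik, also overlapping on the other strand, had at most 0.644 CPM in any library. Of the 5 other nearby rows measured, Anapc5, Camkk2, Orai1, Tmem120b and Hpd, the one farthest from 0 was Tmem120b at 0.61 ± 0.26 (adjusted p = 0.310). Kdm2a, the closest relative of Kdm2b, was steady at 59.98 to 70.3 CPM. Rows for 9 partners of Kdm2b in its Polycomb complex, chosen after its values were seen and not tested as a list, lay between -0.14 and 0.35 with a median of -0.02 on the log2 scale for het-labelled against wild-type livers on chow. They include Pcgf1, Bcor (in a joined row), Rnf2, Usp7 and Skp1a.

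Markers of Kupffer cells, the resident macrophages of the liver, were high in the same group as Kdm2b. The summed level of 9 markers, none of them at 0, was 263 and 168 CPM in het-labelled HFD livers, 158 and 162 CPM in wild-type HFD livers, 464 and 384 CPM in het-labelled chow livers and 170 and 158 CPM in wild-type chow livers. Of the 9, 5 were called higher in het-labelled than wild-type livers on chow and 6 were called lower on HFD in het-labelled livers. Library 7 had the third highest sum, at 263 CPM. It held 8.74 CPM of Kdm2b, where all libraries outside het-labelled chow livers lay between 8.00 and 8.74 CPM. In het-labelled chow livers Kdm2b was 21.7 and 18.6 CPM. The part of Kupffer cells in the Kdm2b change was not tested.

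**Figure D3:**
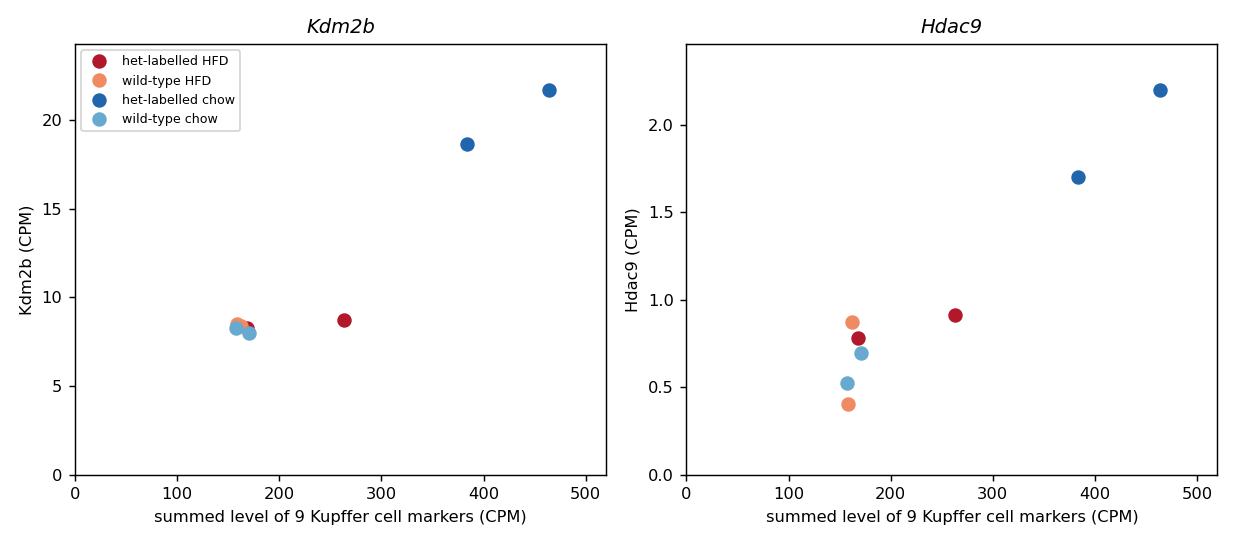
Kdm2b (left) and Hdac9 (right) in CPM on the vertical axes against the summed level of 9 Kupffer cell markers in CPM on the horizontal axes, 1 point per library, coloured by group. The 2 het-labelled chow libraries stand alone at 464 and 384 CPM of markers with 21.7 and 18.6 CPM of Kdm2b. The het-labelled HFD library at 263 CPM of markers has 8.74 CPM of Kdm2b, where all libraries outside het-labelled chow livers lie between 8.00 and 8.74 CPM.

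Kdm1b and Kdm3a were the demethylases that changed with diet in wild-type livers. Kdm1b (LSD2), a flavin-dependent demethylase of histone H3 lysine 4, had 35.6 and 28.9 CPM in het-labelled HFD livers, 41.2 and 40.4 CPM in wild-type HFD livers, 28.3 and 23.7 CPM in het-labelled chow livers and 23.8 and 29.6 CPM in wild-type chow livers. Both wild-type HFD libraries were above the other 6, and in het-labelled livers the lower HFD library, at 28.9 CPM, was just above the higher chow library. It rose with HFD in wild-type livers by 0.61 ± 0.14 on the log2 scale, 1.53-fold (edgeR adjusted p = 0.0484). In het-labelled livers the log2 change was 0.31 ± 0.15, which did not pass (adjusted p = 0.302), and the interaction of -0.30 ± 0.20 did not pass either (adjusted p = 0.762). Averaged over both genotypes, the rise was 0.46 ± 0.10 (adjusted p = 0.0239).

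The Kdm1b calls stood near the threshold. The wild-type one was lost with RLE scaling (adjusted p = 0.0506), with a filter of 1 CPM in 2 libraries (0.0518), and without library 5 (0.220), 6 (0.183), 1 (0.342) or 2 (0.0892). The averaged one was lost without library 7 (0.0726), 5 (0.0792), 6 (0.0716), 4 (0.0553) or 1 (0.0997). Exons of Dek, a chromatin protein gene on the other strand, overlap Kdm1b, and Dek had a difference of -0.07 on the log2 scale with HFD in wild-type livers (adjusted p = 0.784).

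Kdm3a (JMJD1A), which removes methyl groups from histone H3 lysine 9 and is known in fat tissue as a regulator of metabolic genes, had 19.8 and 18.8 CPM in het-labelled HFD livers, 18.9 and 20.7 CPM in wild-type HFD livers, 21.05 and 22.05 CPM in het-labelled chow livers and 27.03 and 26.7 CPM in wild-type chow livers. The wild-type chow libraries were the 2 highest and did not overlap any other. In wild-type livers it fell by 0.44 ± 0.10 on the log2 scale with HFD, to 0.737 of chow (edgeR adjusted p = 0.0386). In het-labelled livers the log2 change was -0.16 ± 0.10 (adjusted p = 0.459), and the interaction of 0.28 ± 0.14 did not pass (adjusted p = 0.702). The averaged diet change was -0.30 ± 0.07 (adjusted p = 0.0284).

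DESeq2 did not call Kdm3a in wild-type livers (adjusted p = 0.110) or on average (0.109). The wild-type call was also lost without library 5 (0.212), 6 (0.124), 1 (0.234) or 2 (0.179). The averaged call was lost without library 7 (0.0591), 8 (0.0645), 5 (0.0958), 6 (0.0630), 1 (0.0949) or 2 (0.0957). Beside the diet calls in wild-type livers, the summed level of 3 red blood cell markers (none at 0) was 828 and 654 CPM in wild-type HFD livers and 320 and 258 CPM in wild-type chow livers, with 2 of the 3 called higher. Their part in the Kdm1b and Kdm3a changes was not tested.

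**Figure D4:**
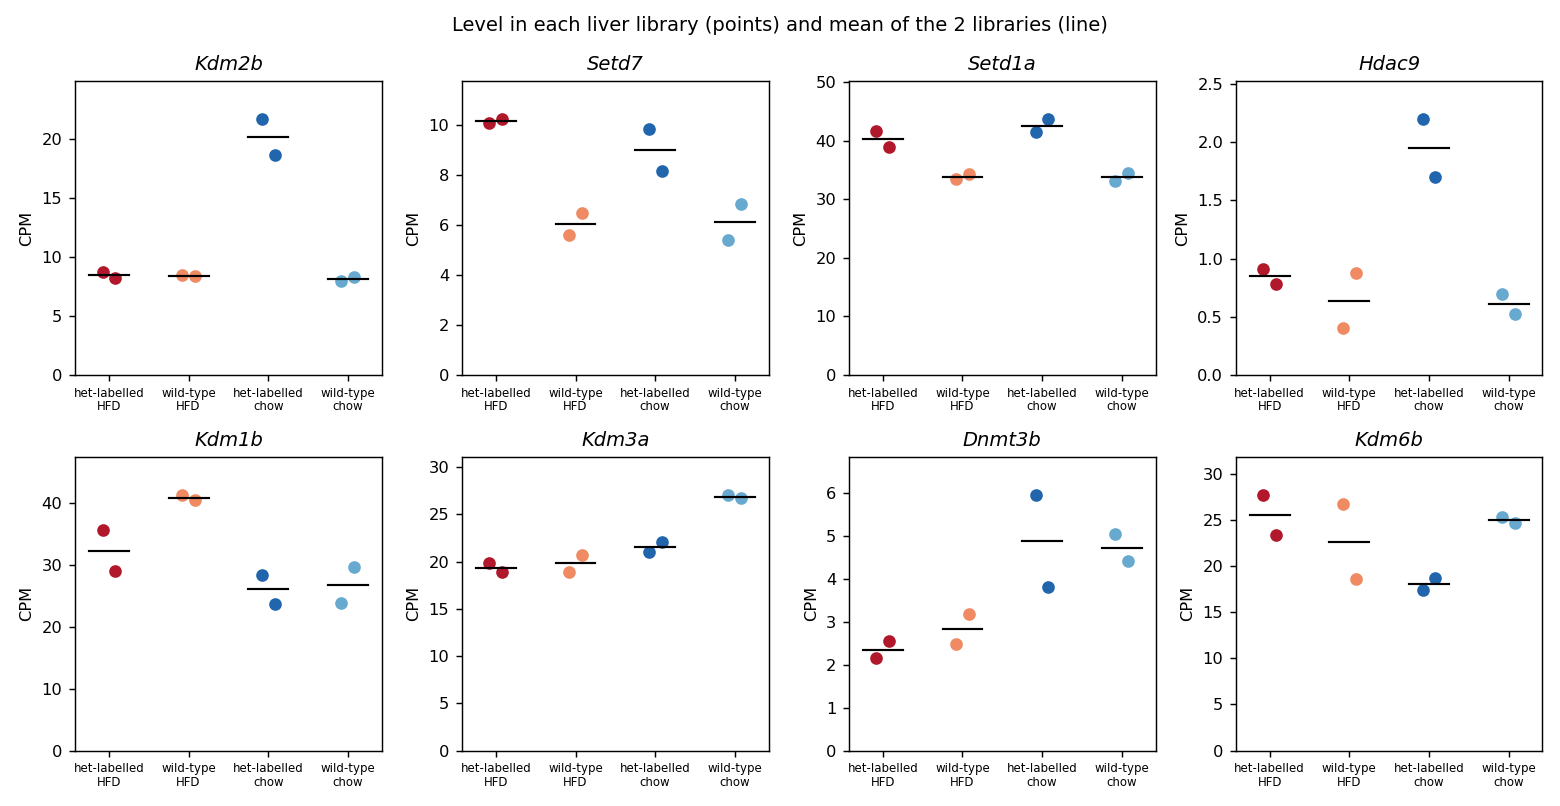
Level in CPM (vertical axes, from 0) of the 6 called enzymes and of Hdac9 and Kdm6b in each library (points; lines are means of the 2 libraries), with the 4 groups from left to right. Kdm2b is high only in het-labelled chow livers (21.7 and 18.6 CPM), Setd7 and Setd1a are higher in all 4 het-labelled than in all 4 wild-type libraries, and Dnmt3b is higher in all 4 chow than in all 4 HFD libraries.

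Of the other demethylases none was called. Kdm5c, a demethylase of histone H3 lysine 4 on the X chromosome, ran at 55.5 to 65.8 CPM and Kdm5d at 18.6 to 20.6 CPM. Kdm1a (LSD1), the better known flavin-dependent demethylase, stayed at 13.3 to 15.6 CPM, and no comparison moved it by more than 0.14 on the log2 scale. Kdm6b (JMJD3), the histone H3 lysine 27 demethylase known for its induction in macrophages, had 27.7 and 23.3 CPM in het-labelled HFD livers, 26.7 and 18.5 CPM in wild-type HFD livers, 17.4 and 18.7 CPM in het-labelled chow livers and 25.3 and 24.7 CPM in wild-type chow livers. The wild-type HFD libraries stood far apart, the het-labelled chow libraries were among the 3 lowest, and the HFD groups overlapped. Its smallest adjusted p was 0.160, for a log2 diet change of 0.50 ± 0.17 in het-labelled livers. Its interaction was 0.65 ± 0.24 (edgeR adjusted p = 0.669). The histone H3 lysine 9 demethylases Kdm3b, Kdm4a, Kdm4b and Kdm4c ran at 31.8 to 41.2 CPM, 28.3 to 38.8 CPM, 11.8 to 14.7 CPM and 8.10 to 9.73 CPM. Kdm5a, a histone H3 lysine 4 demethylase, ran at 29.3 to 38.7 CPM, and its relative Kdm5b differed most within a group among the tested demethylases, with 23.6 and 41.03 CPM in the 2 het-labelled HFD libraries. Kdm5b was chosen after its values were seen. It was called for genotype on average when library 7 was left out, and Kdm5a (adjusted p = 0.0483) for diet in wild-type livers in the fit of only those 2 groups.

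**Figure D5:**
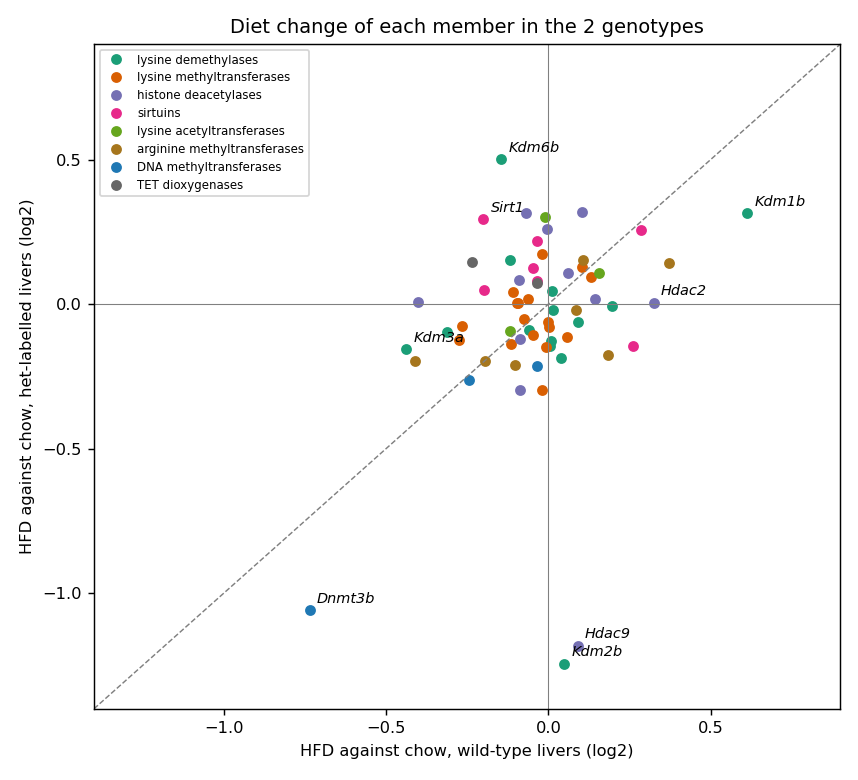
Log2 change with HFD against chow of each of the 64 tested enzymes in het-labelled livers (vertical) and wild-type livers (horizontal), which share no library. The dashed line marks equal change; Kdm2b and Hdac9 lie far below it, at -1.24 and -1.18 in het-labelled livers, and Dnmt3b is below 0 on both axes.

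Among lysine methyltransferases, 2 of 17 were higher in het-labelled livers when both diets were averaged, which is 11.8% of the class from 2 calls, beside 1.21% of all rows called higher. The promoter windows of the pair, chr3:51560774-51561073 on the minus strand for Setd7 and chr7:127777139-127777438 on the plus strand for Setd1a, are shown because both genes moved with the genotype (RefSeq, GRCm38.p6, 5′ to 3′ along the gene, CG in capitals).
Setd7: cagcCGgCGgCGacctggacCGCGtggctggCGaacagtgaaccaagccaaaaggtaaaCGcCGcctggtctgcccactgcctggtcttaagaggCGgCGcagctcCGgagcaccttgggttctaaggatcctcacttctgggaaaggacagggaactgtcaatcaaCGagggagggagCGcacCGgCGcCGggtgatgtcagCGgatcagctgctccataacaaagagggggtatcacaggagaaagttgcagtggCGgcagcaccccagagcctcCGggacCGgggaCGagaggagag
Setd1a: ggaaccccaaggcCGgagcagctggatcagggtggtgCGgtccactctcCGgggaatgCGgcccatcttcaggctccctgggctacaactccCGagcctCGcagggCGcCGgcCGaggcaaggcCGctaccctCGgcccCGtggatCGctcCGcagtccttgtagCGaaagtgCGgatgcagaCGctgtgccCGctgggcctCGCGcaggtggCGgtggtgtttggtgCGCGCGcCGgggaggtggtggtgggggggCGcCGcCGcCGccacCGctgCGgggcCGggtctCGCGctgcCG
They hold 21 and 35 CG dinucleotides. Neither contains an E-box (CACGTG), a HIF core (ACGTG, part of that E-box), a cAMP element (TGACGTCA), a D-box (TTATGNAA) or a CCAAT box (CCAAT) on either strand. Those motifs were found in 7.15%, 19.6%, 1.79%, 3.39% and 37.4% of all windows, in that order. The internal Kdm2b window printed above holds 1 CCAAT match.

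Setd7, a methyltransferase of histone H3 lysine 4 and of other proteins, had 10.1 and 10.2 CPM in het-labelled HFD livers, 5.60 and 6.51 CPM in wild-type HFD livers, 9.85 and 8.16 CPM in het-labelled chow livers and 5.42 and 6.84 CPM in wild-type chow livers. All 4 het-labelled libraries were above all 4 wild-type libraries. Averaged over both diets it was 0.65 ± 0.12 higher on the log2 scale in het-labelled livers (edgeR adjusted p = 0.0297). It was 1.68-fold higher on HFD (log2 0.75 ± 0.17, adjusted p = 0.0997) and 1.47-fold higher on chow (0.55 ± 0.17, adjusted p = 0.187), neither of which passed. The interaction was 0.19 ± 0.24, with a 95% interval of -0.35 to 0.74.

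Setd1a, the catalytic subunit of another histone H3 lysine 4 methyltransferase complex, had 41.7 and 38.97 CPM in het-labelled HFD livers, 33.4 and 34.4 CPM in wild-type HFD livers, 41.5 and 43.7 CPM in het-labelled chow livers and 33.1 and 34.5 CPM in wild-type chow livers. Here too the genotypes did not overlap. The averaged difference was small, 0.29 ± 0.06 on the log2 scale (edgeR adjusted p = 0.0390), with ratios of 1.19 on HFD and 1.26 on chow. The interaction was -0.08 ± 0.12, with an interval of -0.35 to 0.19.

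Both calls stood near the threshold. Over 12 settings the averaged log2 difference stayed between 0.57 and 0.74 for Setd7 and between 0.27 and 0.32 for Setd1a. Setd7 was lost without library 8 (0.0636), 5 (0.104), 6 (0.0657), 3 (0.0754), 1 (0.0950) or 2 (0.0914), as adjusted p. Setd1a was lost with DESeq2 (0.110) and without library 7 (0.0843), 8 (0.0644), 5 (0.137), 6 (0.110), 3 (0.0615), 1 (0.133) or 2 (0.147). The Kupffer marker sum given above was higher in het-labelled chow livers, and on the average of both diets 7 of the 9 markers were called higher in het-labelled livers. Its part in the Setd7 and Setd1a differences was not tested. In het-labelled libraries 7, 8, 3 and 4 the marker sum was 263, 168, 464 and 384 CPM, where wild-type libraries had 158 to 170 CPM. In the same order, Setd7 stood at 10.1, 10.2, 9.85 and 8.16 CPM and Setd1a at 41.7, 38.97, 41.5 and 43.7 CPM.

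The other 15 members of the class were not called. Setd3 ran at 74.03 to 82.5 CPM and Ehmt2 at 53.6 to 62.5 CPM. Setd8 (Kmt5a), which places a single methyl group on histone H4 lysine 20, was the lowest in het-labelled livers relative to wild-type on average, at -0.21 ± 0.07 (edgeR adjusted p = 0.125, not called). The core of Polycomb complex 2 did not pass in any comparison: Ezh2 stayed at 3.27 to 4.41 CPM, Ezh1 at 14.6 to 19.6 CPM, Suz12 at 22.5 to 29.7 CPM and Eed at 14.7 to 17.6 CPM. Among enzymes of histone H3 lysine 9, Setdb1 ran at 25.6 to 34.9 CPM, Ehmt1 at 24.2 to 30.04 CPM and Setdb2 at 11.8 to 14.96 CPM. Dot1l, the histone H3 lysine 79 methyltransferase, ran at 21.4 to 26.6 CPM, and Setd2, that of lysine 36, at 38.5 to 47.2 CPM. Setd5, Setd6 and Setd4 ran at 35.5 to 43.4 CPM, 11.5 to 14.4 CPM and 2.77 to 4.10 CPM.

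Among deacetylases, sirtuins, acetyltransferases, arginine methyltransferases and TET enzymes, neither edgeR nor DESeq2 called an enzyme in any of the 7 comparisons. At an unadjusted p under 0.05, edgeR gave in a single comparison at most 4 of 11 histone deacetylases, 1 of 7 sirtuins, 0 of 3 acetyltransferases, 1 of 7 arginine methyltransferases and 0 of 2 TET enzymes. Over all rows the share under 0.05 ran from 7.15% for the interaction to 25.3% for diet on average, and it was 15.3% for genotype on chow, the comparison with the 4 deacetylases. In the pair of deacetylases with the highest CPM, library 3 stood apart. Hdac5, a class IIa deacetylase that shuttles between nucleus and cytoplasm, had 56.3 and 43.2 CPM in het-labelled HFD livers, 58.98 and 55.4 CPM in wild-type HFD livers, 31.3 and 51.8 CPM in het-labelled chow livers and 53.1 and 61.5 CPM in wild-type chow livers. Hdac11, the only class IV member, had 49.7 and 51.99 CPM in het-labelled HFD livers, 50.03 and 54.6 CPM in wild-type HFD livers, 33.2 and 48.5 CPM in het-labelled chow livers and 56.01 and 53.8 CPM in wild-type chow livers. Library 3 was the lowest for both, far below library 4 of the same group, and the other 7 libraries lay between 43.2 and 61.5 CPM for Hdac5 and between 48.5 and 56.01 CPM for Hdac11. With library 4 left out, so that library 3 alone stood for het-labelled chow and was assumed to vary like the other groups, both genes were called lower on chow (Hdac11 adjusted p = 0.0252, Hdac5 adjusted p = 0.0442); with all libraries they were not (0.250 and 0.355). The same omission also called Hdac11 for diet in het-labelled livers and both genes for genotype on average.

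Of the class I deacetylases, Hdac1 ran at 18.6 to 26.2 CPM, its paralog Hdac2 at 15.9 to 23.2 CPM and Hdac8 at 2.57 to 3.46 CPM. Hdac6, the cytoplasmic tubulin deacetylase, stood at 17.3 to 21.3 CPM, and the other class II members Hdac10, Hdac7 and Hdac4 at 9.04 to 13.2 CPM, 5.24 to 7.54 CPM and 3.23 to 4.98 CPM. Hdac1 and Hdac2 were above their wild-type levels on chow with unadjusted p under 0.05 and adjusted p of 0.259 and 0.310 in edgeR, and this pair was chosen after its values were seen. Hdac3, the catalytic part of the nuclear corepressor complex, varied little, at 29.1 to 36.3 CPM. Its largest log2 change in any comparison was 0.11. Hdac9, a low class IIa deacetylase, had 0.912 and 0.782 CPM in het-labelled HFD livers, 0.404 and 0.875 CPM in wild-type HFD livers, 2.20 and 1.70 CPM in het-labelled chow livers and 0.693 and 0.522 CPM in wild-type chow livers. Both het-labelled chow libraries were above the other 6. On chow it was 3.21 times as high in het-labelled as in wild-type livers (log2 1.67 ± 0.39), but the edgeR adjusted p was 0.0990. In het-labelled livers the diet change was -1.18 ± 0.37 (adjusted p = 0.132), and the interaction was -1.27 ± 0.59 (adjusted p = 0.700). The Kupffer marker sum was high in the same 2 libraries, and its part was not tested.

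The sirtuins showed no call among 7 members. Sirt3 had 80.8 and 72.5 CPM in het-labelled HFD livers, 78.5 and 81.9 CPM in wild-type HFD livers, 60.9 and 79.7 CPM in het-labelled chow livers and 85.3 and 80.3 CPM in wild-type chow livers, with library 3 the lowest. Sirt2, a mainly cytoplasmic deacetylase, stayed at 39.3 to 44.7 CPM. Summed over the class, library 3 held 157 CPM, where the other 7 libraries held 185 to 199 CPM. Its deacetylase sum was 184 CPM, against 220 to 231 CPM in the others. Over all tested enzymes, library 3 was the lowest for 11 and the highest for 12, and library 5 was the lowest for 14. Summed markers of sinusoidal endothelial cells were 203 CPM in library 3 and 134 to 178 CPM in the others. Those of stellate cells were 232 CPM in library 3 and 148 to 191 CPM in the others. Their part in the levels of library 3 was not tested.

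Sirt1, the nuclear sirtuin linked to fasting metabolism, had 13.5 and 14.2 CPM in het-labelled HFD livers, 10.5 and 12.1 CPM in wild-type HFD livers, 11.98 and 10.5 CPM in het-labelled chow livers and 14.2 and 11.9 CPM in wild-type chow livers. Its log2 diet change was 0.29 ± 0.14 in het-labelled livers (edgeR adjusted p = 0.317) and -0.20 ± 0.14 in wild-type livers (adjusted p = 0.490). The interaction was 0.49 ± 0.20 and did not pass (adjusted p = 0.690). Sirt5, which removes succinyl and malonyl groups in mitochondria, had the smallest p of the class, with an averaged diet change of 0.27 ± 0.09 (adjusted p = 0.113). Sirt6, a chromatin-bound sirtuin, was low at 2.55 to 4.15 CPM, with a smallest adjusted p of 0.401. Sirt7, a nucleolar sirtuin, ran at 25.9 to 35.2 CPM, again lowest in library 3, and the mitochondrial Sirt4 at 6.87 to 9.28 CPM.

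Acetyltransferases were represented by 3 rows, none of them called. Kat2b ran at 83.4 to 94.6 CPM, with an averaged log2 diet change of -0.10 ± 0.05 (edgeR adjusted p = 0.268). Kat2a (GCN5), its paralog, stayed at 16.8 to 21.8 CPM and Kat5 (TIP60), an acetyltransferase of histone H4 also active in DNA repair, at 9.93 to 13.9 CPM. Kat5 had the smallest unadjusted p of the class, for a log2 diet change of 0.30 ± 0.14 in het-labelled livers (adjusted p = 0.303).

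Arginine methyltransferases numbered 7 tested rows of 8, with no call. Prmt1, the main enzyme of asymmetric dimethylation, ran at 9.75 to 13.5 CPM, and Prmt5, that of symmetric dimethylation, at 11.1 to 13.4 CPM. Prmt10 (now Prmt9) had the smallest unadjusted p, with a log2 diet change of 0.37 ± 0.14 in wild-type livers (edgeR adjusted p = 0.200). The joined row of Prmt2 and Mir678 was at most 1.01 CPM and cannot be divided between its genes. Prmt7, Prmt3 and Prmt6 ran at 8.96 to 13.4 CPM, 5.33 to 8.70 CPM and 5.10 to 7.56 CPM.

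Among DNA methyltransferases, Dnmt3b fell with HFD. This enzyme sets methylation on previously unmethylated CpGs, and it had 2.15 and 2.56 CPM in het-labelled HFD livers, 2.48 and 3.17 CPM in wild-type HFD livers, 5.95 and 3.81 CPM in het-labelled chow livers and 5.04 and 4.41 CPM in wild-type chow livers. All 4 HFD libraries were below all 4 chow libraries, and the nearest pair were 3.17 CPM in library 6 and 3.81 CPM in library 4. Averaged over both genotypes the log2 change was -0.90 ± 0.18 (edgeR adjusted p = 0.0177). It was -1.06 ± 0.27 in het-labelled livers (adjusted p = 0.0751) and -0.74 ± 0.25 in wild-type livers (adjusted p = 0.155), neither called, although the het-labelled change was called without a filter on low counts (0.0289) and without library 4 (0.0456), and the interaction was -0.32 ± 0.37 (adjusted p = 0.853). The averaged call was lost without library 7 (0.0623), 5 (0.0622) or 1 (0.0710). With HFD on average, 5 of the 9 Kupffer cell markers were also called lower. In het-labelled livers 6 of them were called lower (median log2 change -1.08) and in wild-type livers 0 (median -0.18). Their part in the Dnmt3b change was not tested.

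Its relatives were not called. Dnmt3a, the other de novo enzyme, had 18.1 and 21.5 CPM in het-labelled HFD livers, 17.8 and 18.6 CPM in wild-type HFD livers, 19.8 and 27.6 CPM in het-labelled chow livers and 23.5 and 19.7 CPM in wild-type chow livers, with overlapping groups. Its averaged diet change was -0.25 ± 0.12 (edgeR adjusted p = 0.227). Dnmt1, which copies methylation after replication, ran at 10.1 to 13.04 CPM, with an averaged diet change of -0.13 ± 0.09 (adjusted p = 0.422). The TET enzymes were not called: Tet3 ran at 21.97 to 29.8 CPM, Tet2 at 10.8 to 16.5 CPM and the untested Tet1 at 0.348 CPM or less. The smallest unadjusted p of the TET class was for Tet2 in the interaction, at 0.38 ± 0.25 (edgeR adjusted p = 0.758).

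Of 37 other writers and erasers, edgeR called 2 with diet on average (5.41%, beside 10.4% of all rows) and 1 with genotype on average (2.7%, beside 3.24%). Clock, a circadian transcription factor with acetyltransferase activity, was lower (log2 -0.34 ± 0.08, adjusted p = 0.0282), and Smyd2, a lysine methyltransferase, was higher (0.28 ± 0.08, adjusted p = 0.04999). Smyd2 was also lower in het-labelled than wild-type livers on average (-0.37 ± 0.08, adjusted p = 0.0389). Of 50 tested partner subunits of 52 rows, Chd4, the ATPase of the NuRD deacetylase complex, was called alone, as lower with HFD on average (-0.35 ± 0.06, adjusted p = 0.00886), which is 2.0% of the list beside 10.4% of all rows. Chd4 had 92.3 and 90.03 CPM in het-labelled HFD livers, 78.6 and 87.6 CPM in wild-type HFD livers, 119 and 115 CPM in het-labelled chow livers and 107 and 102 CPM in wild-type chow livers, so no HFD library reached any chow library.

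Of 32 tested genes (34 rows) that make or use the enzymes' cofactors, 4 were called with diet on average (12.5%, beside 10.4% of all rows). With genotype on average 3 were called, all lower (9.38%, beside 2.03% of all rows called lower). Within a single genotype, Acly was called higher with HFD in wild-type livers (0.95 ± 0.16, adjusted p = 0.0140) and Idh2 lower in het-labelled (-0.52 ± 0.10, adjusted p = 0.0364) and wild-type livers (-0.45 ± 0.10, adjusted p = 0.0443). Acly, which makes acetyl-CoA for histone acetylation and lipid synthesis, rose by 0.83 ± 0.11 on the log2 scale with HFD (edgeR adjusted p = 0.00301). Idh2, which makes 2-oxoglutarate in mitochondria, fell by 0.49 ± 0.07 with HFD (adjusted p = 0.00466) and was lower in het-labelled livers on average (-0.38 ± 0.07, adjusted p = 0.0347). Mat1a, the liver enzyme that makes S-adenosylmethionine, rose by 0.28 ± 0.07 with HFD (adjusted p = 0.0408), and Nadk, the NAD kinase, by 0.28 ± 0.06 (adjusted p = 0.0151). Bhmt, which remakes methionine from homocysteine, was lower in het-labelled livers (log2 -1.08 ± 0.19, adjusted p = 0.0261), as was Gnmt, which uses up S-adenosylmethionine (-0.32 ± 0.07, adjusted p = 0.0429). The lists' medians for diet on average were -0.0034, -0.02 and 0.02 on the log2 scale for other writers and erasers, partner subunits and cofactor genes, beside 0.01 over all rows. For genotype on average they were 0.06, 0.05 and -0.14, beside 0.01 over all rows.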

How the data were processed

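Liver RNA-seq was measured in 8 libraries. The deposited table holds read counts per gene as whole numbers that the authors did not normalize, per the file headers and values. CASAVA, TopHat2, HTSeq, DESeq and the build mm9 are named, per the submitters' processing notes; which version of each was run, and for what, is not given in the sources used here. Groups and library numbers came from the titles, and no batch was given.

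Testing used edgeR 4.0.16 under R 4.3.3. Rows passing filterByExpr (12593 of 22946) were scaled with TMM factors. The quasi-likelihood fit had 1 mean per group over the 8 libraries, with a common biological coefficient of variation of 11.2%. Estimated within each group, it was 13.55% in het-labelled HFD and 13.81% in het-labelled chow livers. In wild-type livers it was 8.71% on HFD and 7.57% on chow. The fit shared its spread over all groups and did not allow for this difference. Tests were 2-sided with Benjamini-Hochberg adjustment over all tested rows, for 7 comparisons, and a row was called at an adjusted p under 0.05. Each ± on a log2 change is a standard error. The procedure was tested on simulated data. The 2 libraries of a group differed beyond sampling noise, so none was counted as a duplicate.

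CPM values use the scaled library sizes. Values per kb use exon lengths of a GRCm38 annotation, a newer build than that of the counts; all 68 symbols were matched, 2 under a newer name. Promoter sequences are RefSeq windows of GRCm38.p6. The enzymes and gene lists were chosen with earlier results of these data known. Described by rule are all called enzymes, in each class the 2 with the highest mean CPM and the 1 with the smallest p, a panel of 10 enzymes with Mll2, and up to 4 called genes per related list and comparison; other enzymes are named to account for them by their range. Alternatives were DESeq2 1.42.0, RLE scaling, no filter, a filter of 1 CPM in 2 libraries, a fit of only the 2 groups compared, and leaving out each library.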

Additional observations from a re-analysis of the deposited data

How the results depend on the processing

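Over the alternatives, single enzymes were followed in comparisons with an unadjusted edgeR p under 0.05 or named in the text. Of these values, 966 kept their direction and side of the threshold, 45 lost a call, 10 gained one and 4 changed sign. Most were not called in the main test, and only called ones could lose a call. The averaged genotype call of Setd1a was lost in 8 of 12 settings and the averaged diet call of Kdm3a in 7 of 12. The diet call of Kdm2b in het-labelled livers was lost in 0 of 13. With DESeq2, the interaction gained 1 call and wild-type diet kept 1. RLE scaling and the filter of 1 CPM in 2 libraries each left 1 for diet in wild-type livers, and the fit of only those 2 groups gave 4, adding Kdm5a and Setd2. Without a filter the counts were 2 for diet in het-labelled livers (adding Dnmt3b), 1 for genotype on HFD (Setd7) and 1 for the interaction (Kdm2b). Leaving out single libraries gave 0 to 2 calls for diet in wild-type livers, 1 to 3 for diet in het-labelled livers, 0 to 3 for genotype on chow, 1 to 4 for diet averaged and 0 to 5 for genotype averaged. The largest counts for diet in het-labelled livers, genotype on chow and genotype averaged came without library 4, when library 3 stood alone. Over all rows, 578 calls for diet in wild-type livers became 97 to 898 with 1 library left out and 1321 in the fit of those 2 groups, and 380 in het-labelled livers became 142 to 292, 680 without a filter and 109 in the fit of 2 groups. For genotype, 56 calls on HFD became 12 to 180 with 1 library left out, 229 with DESeq2, 258 without a filter and 25 in the fit of 2 groups, and 65 on chow became 1 to 280, 219 with DESeq2 and 314 without a filter. The 1309 averaged diet calls became 540 to 1409 and the 408 averaged genotype calls 23 to 757, with 760 unfiltered, and the interaction's 0 became 0 to 14, with 23 by DESeq2 and 8 unfiltered. Sign changes were near 0 and came from leaving out 1 library: Kdm2b for genotype on HFD ranged from -0.0301 (without library 7) to 0.0539, Dnmt3b in the interaction from -0.601 to 0.0298 (without library 3), Tet3 for genotype on average from -0.0507 (without library 4) to 0.171, and Sirt2 for diet in het-labelled livers from -0.00614 (without library 3) to 0.161. The cause was not tested. No paired analysis was possible because the library numbers run from 1 to 8 and no number is shared between groups. With 2 libraries a group, the median enzyme's 95% interval reached 0.30 on the log2 scale either side in a single comparison, and enzymes with narrower intervals could show smaller differences.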
